A study of Mus musculus with 2 samples.

Results

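Very GC-rich promoters are described here as they behaved in a STARR-seq reporter experiment carried out in activated T helper 1 (Th1) cells of the mouse, a class of CD4 T cell known for making interferon gamma. A region of the authors' deposited table was taken as a very GC-rich promoter when it lay on chromosomes 1 to 19, its centre was within 1000 bp of an annotated transcription start of any gene, and its sequence was at least 70% G plus C. This gave 1066 of the 14994 listed regions, or 1066 of 7664 promoter regions, at 1012 starts of 988 genes. The plots call the regions rows, since each is a row of the table. The direction of effect was not used in choosing them.

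The cells were primary activated Th1 cells of strain C57BL/6NJ, and the reporter was an episome brought in by transient transfection, so fragments were read away from their place in the chromosome. There was 1 group with 2 output libraries, labelled as biological replicates with the same donor identifier, from 30 ug of nucleic acid each and with a size range of 200 to 400, whose unit the labels do not give. For both libraries the labels name anti-CD3e and anti-CD28 for 3 days, and anti-Interleukin-4, Interleukin-2 and Interleukin-12 p70 for 4 days. The doses read were 0.25 ug/mL of anti-CD3e, 10 ng/mL of each interleukin (from replicate 1), 1 ug/mL of anti-CD28 and 2 ug/mL of anti-Interleukin-4 (both from replicate 2). The age and sex of the animals are not given, and the labelled cell type could not be checked against marker genes because the table holds no expression values. All values stand in 1 table that combines the libraries. A spread between replicates therefore cannot be given, read depth is unknown, and a p-value over regions describes these listed regions, which are not independent of each other.

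Most vertebrate promoters that are rich in G and C are CpG islands, stretches in which the CpG dinucleotide has not been lost through methylation and decay. They serve housekeeping genes and many developmental regulators, usually lack a TATA box, and carry GC boxes bound by SP and KLF factors, with CCAAT boxes bound by NF-Y and cyclic AMP response elements (CRE) bound by CREB and ATF factors in a part of them. In STARR-seq an active fragment drives transcription of itself, and its abundance in output RNA is set against that in input DNA. The sources used here do not give the scale or the direction of the deposited effect. A negative effect is read below as output under input, and a positive effect as output over input.

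The sequences that follow are examples from regions of low and high effect. All were read from the GRCm38 (mm10) genome, plus strand, 5′ to 3′, and lie outside every annotated exon. The 4 of 120 bases, with each CpG in capitals, come from single-copy regions with effects far below 0 (Chn1 and Nrf1) and far above it (2410018L13Rik and Gm13142). Single-copy means no second match of at least 95% identity over at least 240 bp. The regions at 2410018L13Rik and Gm13142 had adjusted p of 0.00254 and 0.000922 in the authors' deposited table. Multi-copy regions with positive effects lay on the same chromosomes, among them 9030624G23Rik (chr12:24097126-24097425, 6 copies) and Gm13244 (chr4:145745001-145745525, 4 copies). A single capital C at the end of a stretch begins a CpG that runs past it.
Chn1, chr2:73775409-73775528, effect -4.31: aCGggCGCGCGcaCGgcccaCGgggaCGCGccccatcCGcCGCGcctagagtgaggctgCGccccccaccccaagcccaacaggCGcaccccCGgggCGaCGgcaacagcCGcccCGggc
Nrf1, chr6:30047783-30047902, effect -3.37: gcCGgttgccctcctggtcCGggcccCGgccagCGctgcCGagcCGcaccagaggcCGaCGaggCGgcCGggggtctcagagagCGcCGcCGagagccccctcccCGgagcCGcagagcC
2410018L13Rik, chr12:23010287-23010406, effect 1.77: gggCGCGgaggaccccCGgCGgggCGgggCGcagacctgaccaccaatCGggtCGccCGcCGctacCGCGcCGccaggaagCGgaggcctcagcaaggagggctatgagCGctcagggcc
Gm13142, chr4:147102134-147102253, effect 1.70: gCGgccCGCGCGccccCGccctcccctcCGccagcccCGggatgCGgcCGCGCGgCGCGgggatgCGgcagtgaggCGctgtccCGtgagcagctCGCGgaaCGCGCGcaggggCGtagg
These 4 stretches were alike in composition. The stretches at Chn1 and Nrf1 are 80.8% and 80% G plus C with 18 and 15 CpG, and those at 2410018L13Rik and Gm13142 are 76.7% and 82.5% with 15 and 22. The next 3, of 100 bases, come from regions with positive effects and show in capitals 3 short sequences that were more frequent in positive than in negative very GC-rich promoters, as described further on. They are the CCAAT box (on either strand, CCAAT or its complement), the CRE core TGACGT (here as its complement) and the RUNX consensus TGTGGT.
Zmym2, chr14:56886431-56886530, effect 1.89: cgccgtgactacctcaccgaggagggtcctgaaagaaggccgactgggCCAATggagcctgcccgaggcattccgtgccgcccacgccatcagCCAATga
Klf13, chr7:63938919-63939018, effect 1.24: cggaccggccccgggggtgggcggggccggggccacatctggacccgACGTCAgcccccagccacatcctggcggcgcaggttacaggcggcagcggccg
2410018L13Rik, chr12:23010370-23010469, effect 1.77: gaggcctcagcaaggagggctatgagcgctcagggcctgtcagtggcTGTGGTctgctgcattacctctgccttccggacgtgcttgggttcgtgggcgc

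Very GC-rich promoters mostly had negative effects. Of the 1066 regions, 896 were negative, which is 84.1% (95% Wilson interval 81.7 to 86.1%), and 170 were positive. Among the 6598 other promoter regions 15.7% were negative, and among all regions on chromosomes 1 to 19 the share was 19.4%. The odds of a negative effect were 28.4 times those of other promoters (23.8 to 33.9; two-sided Fisher's exact test on regions, p too small to be represented). In the authors' deposited table every listed region has an adjusted p below 0.01, and the list makes up about 13.1% of the estimated 114722 tested regions, and unlisted regions were not analysed here.

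The median effect of the very GC-rich promoters was -1.18 (95% order-statistic interval -1.26 to -1.13) in the authors' deposited table, with quartiles of -1.67 and -0.78 and a range of -4.45 to 4.46. The median effect of other promoters was 0.76. Effects below -1 were listed for 663 of the very GC-rich regions, effects below -2 for 146 and effects above 1 for 40. Negative effects were also larger: their median was -1.32, against -1.05 in other promoters, a difference of -0.27 (two-sided permutation test of 100000 resamples of regions, p = 1e-05, the smallest it can give). Positive effects were of like size in both sets, with medians of 0.78 and 0.81.

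The share with a negative effect was higher at higher GC inside the set, though not at each step. In classes of 1 percentage point it was 72.3% of 224 regions at 70 to under 71% GC, 79.4% of 160 at 71%, 80.5% of 185 at 72%, 89.5% of 133 at 73% and 89.3% of 84 at 74%. It was 97.1% of 68 at 75%, fell back to 89.2% of 65 at 76% and 89.3% of 28 at 77%, and was 94.1% of 34 at 78%, 91.7% of 12 at 79% and 98.6% of 73 at 80% or more. Each further percentage point of GC multiplied the odds of a negative effect by 1.45 (1.32 to 1.59, n = 1066, p = 1.25e-14). This came from a Wald test in a logistic model with width and CpG observed over expected as covariates. In other promoters the factor was 1.23 (1.21 to 1.26), and the ratio between the factors was 1.17 (interaction, n = 7664, p = 0.00109). That factor is 1 slope over a share that first fell and then rose with GC. The share was 29.3% of 75 promoter regions under 42.5% GC, 2.54% of 670 at 55 to under 57.5% and 56.9% of 747 at 67.5 to under 70%. The ratio therefore does not show a steeper rise above 70% than just below it. The threshold of 70% cut a continuous change. Of 1680 promoter regions at 65 to under 70% GC, 41.2% were negative, against 3.31% of 2295 at 50 to under 60%. The odds ratio of the very GC-rich regions against those at 65 to under 70% was 7.51 (6.20 to 9.08, Fisher's exact test, p = 4.55e-116).

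Several regions stood at the threshold itself, at 70% GC, and the 3 with the lowest start coordinates were taken as those just inside. They were listed in the authors' deposited table with -1.05 (Ttc39c), 0.93 (Rgmb) and -0.56 (Tmem170b). The 3 just outside, at Ube2q2, Lgalsl and Rps6ka1, had -1.53, -0.71 and -1.82.

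High GC outside promoters went the same way, but less far. Of 72 distal regions at 70% GC or more, 65.3% were negative (53.8 to 75.2%), and the odds at very GC-rich promoters were 2.80 times as high (1.68 to 4.68; Fisher's exact test, p = 0.000159). Width, exact GC and CpG content were not matched in this comparison.

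**Figure D1:**
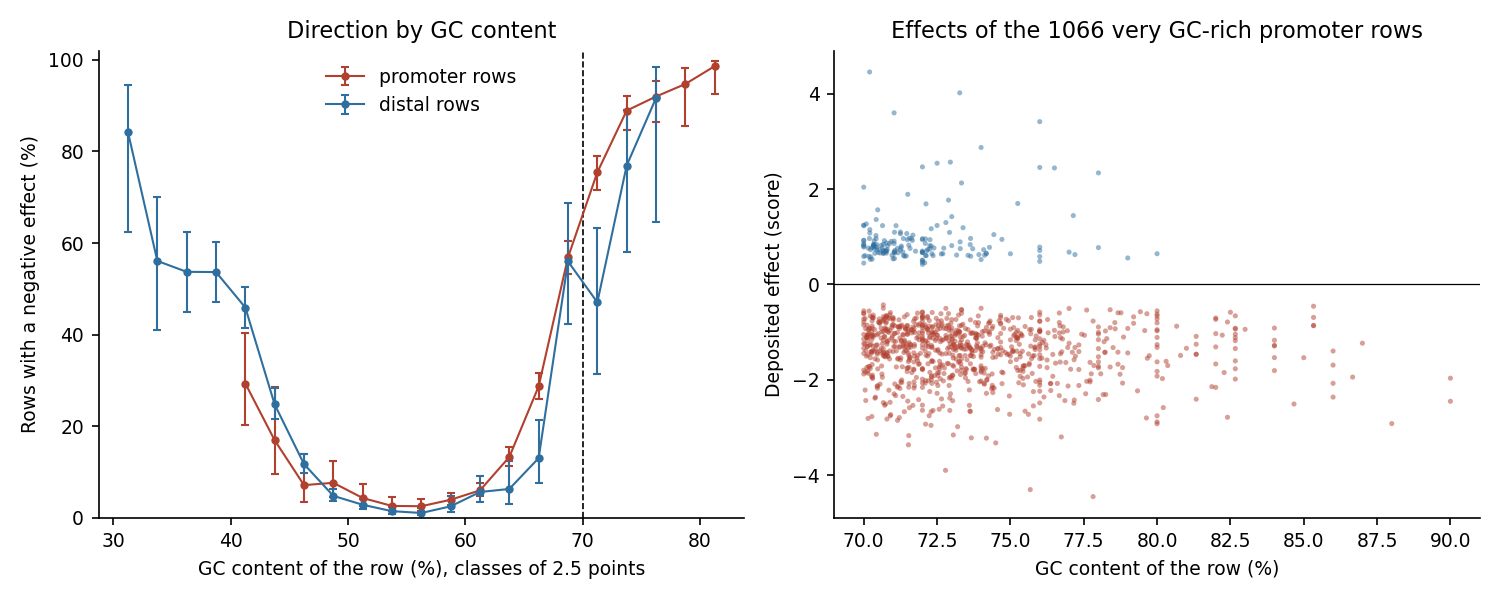
Left, share of regions with a negative effect (%) by GC content (%) in classes of 2.5 points, for promoter and distal regions, with 95% Wilson intervals; the highest promoter class holds all regions of 80% or more, and the dashed line marks 70%. Right, the deposited effect (a score) of each of the 1066 very GC-rich promoter regions against its GC content. In promoters the share rose from 56.9% at 67.5 to 70% GC to 98.6% at 80% or more, and positive effects thin out towards the right.

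The very GC-rich promoters were typical CpG islands by composition. Their median GC content was 72.7%, they held a median of 12 CpG per 100 bp (6.88 in other promoters), and their CpG observed over expected had a median of 0.906 (0.744). The nearest start belonged to a protein-coding gene in 91.4%, and another gene started on the opposite strand within 1000 bp in 18.5%. The regions were 50 to 1875 bp wide with a median of 700 bp, 70.2% had their centre within 250 bp of the start, and 71.9% spanned it, against 84.6% of other promoters. Regions under 300 bp made up 19.7%, against 8.14%.

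Negative effects prevailed at every position round the start. The share was 77.6% of 196 regions centred in the 100 bp upstream of the start and 78.2% of 216 in the 100 bp downstream. It was 89.9% of 207 regions at 100 to 250 bp downstream, 93.2% of 147 at 250 to 500 bp downstream and 87.5% of 128 at 100 to 250 bp upstream. Other promoters had their lowest shares at the start too, 12.5% and 11.7%, and 23.3% at 250 to 500 bp downstream. With GC, CpG content and width in the model, neither (n = 1066) a centre downstream of the start (odds ratio 1.31, 0.925 to 1.85, Benjamini-Hochberg adjusted p = 0.266) nor the distance to the start (1.21 per SD, 0.987 to 1.47, adjusted p = 0.177) was called within the very GC-rich promoters. By annotation of the centre, 91.0% of 267 regions in introns were negative, 88.3% of 120 in coding exons, 81.8% of 374 in UTR exons, 79.5% of 273 in intergenic sequence and 75% of 32 in noncoding exons.

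**Figure D2:**
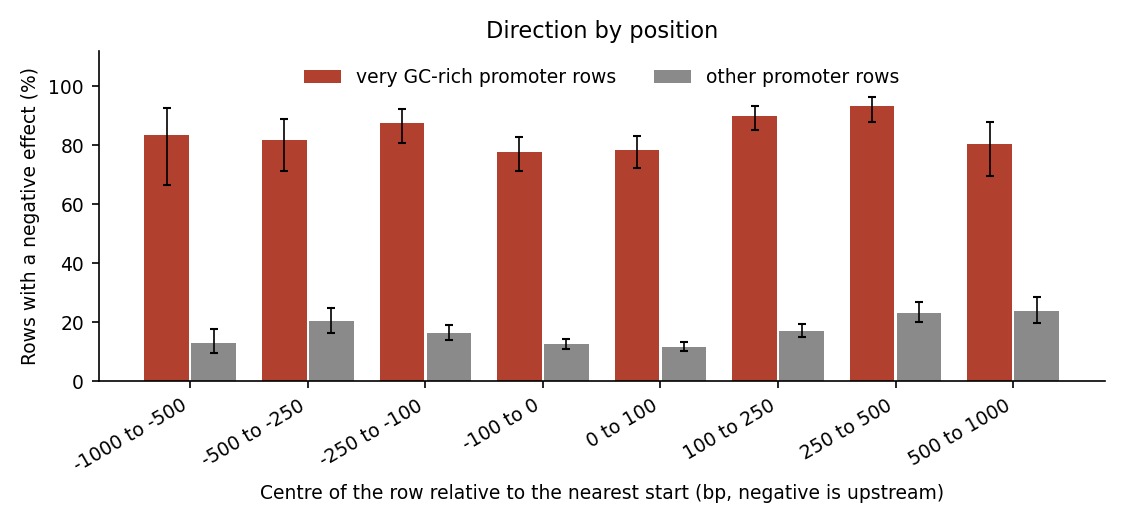
Share of regions with a negative effect (%) by the distance of the region's centre from the nearest transcription start (bp, negative upstream), for the 1066 very GC-rich and 6598 other promoter regions, with 95% Wilson intervals. The share in very GC-rich promoters lies between 77.6% and 93.2% in every class, and that in other promoters between 11.7% and 23.9%.

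Sequence inside the very GC-rich promoters also went with the direction of effect. Of 39 sequence and position features, 29 could be fitted in logistic models of direction with GC, GC squared, CpG observed over expected and width, and 6, or 20.7%, were called at a Benjamini-Hochberg adjusted p under 0.05. Of these, 4 had fewer negative effects with more of the feature and 2 had more.

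The strongest was how densely G and C were packed at one place. The highest GC content of any 100 bp in a region had a median of 86% in negative and 83% in positive very GC-rich promoters, and 76% in other promoters. Per SD of this measure over promoters (9.41 percentage points) the odds of a negative effect rose 9.0 times (5.26 to 15.4, n = 1066, adjusted p = 2.74e-14), with the region's own GC content in the model. In other promoters the factor was 13.7, and the difference was not called (n = 7664, interaction adjusted p = 0.321). Among regions whose densest 100 bp were 76 to 80% G plus C, 61.5% of 91 were negative; the share was 73.5% of 253 at 80 to 84%, 90.7% of 475 at 84 to 88% and 97.7% of 173 at 88 to 92%. All 8 regions over 92% were negative, with a median effect of -2.63. The 66 regions with no denser stretch than 76%, where a region of up to 100 bp counts as its own densest stretch, had 69.7%, so the order did not hold at the lowest class. The regions of highest GC content, named after their values were seen, were 1 of 100 bp at Bmpr1a, a receptor for bone morphogenetic proteins, and 1 of 50 bp at Inafm2, both at 90%, for which the authors' deposited table gives -2.45 and -1.97.

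CCAAT boxes were more frequent in positive regions. CCAAT, the box bound by the trimeric factor NF-Y, was present on either strand in 48.8% of the 170 positive and 27.6% of the 896 negative very GC-rich promoters, and its odds ratio of a negative effect was 0.383 (0.263 to 0.556, n = 1066, adjusted p = 6.85e-06). In other promoters the odds ratio was 0.552, with no called difference (n = 7664, interaction adjusted p = 0.215). The gap was widest at the lower edge of GC: at 70 to under 72%, 65.2% of 155 regions with CCAAT and 82.1% of 229 without it were negative, at 72 to under 75% the shares were 79.9% and 88.1%, and at 75% or more they were 95.1% and 94.1%. Whether the odds ratio changes with GC was not tested. Of regions that covered the 150 to 40 bp before the start, where CCAAT boxes commonly lie, 40 of 118 positive and 76 of 550 negative ones had CCAAT there (33.9% and 13.8%). The Zmym2 region shown above, a MYM-type zinc finger gene, had 2 of them and the highest effect among single-copy regions with CCAAT.

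The CRE core TGACGT, bound by CREB and ATF factors, was in 18.8% of positive and 9.82% of negative regions (odds ratio 0.437, 0.272 to 0.704, n = 1066, adjusted p = 0.00381). In other promoters its odds ratio was 0.683 (n = 7664, interaction adjusted p = 0.215). The full palindrome TGACGTCA, which contains the core, was in 28 regions, too few in one direction to be fitted. The highest single-copy effects with the core were those of Egr1 (1.57), Klf13 (1.24) and Sik1 (1.09), an immediate early zinc finger factor, a KLF factor and a salt-inducible kinase, named after their values were seen.

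TGTGGT, the consensus of RUNX factors, which shape T cell development, was in 18.2% of positive and 10.8% of negative regions (odds ratio 0.484, 0.299 to 0.784, n = 1066, adjusted p = 0.0155). In other promoters the odds ratio was 0.967, and the difference missed the threshold (n = 7664, interaction adjusted p = 0.0601). This call was lost with regions of an adjusted p of 0.001 or less in the authors' deposited table, where the odds ratio was 1.04 (adjusted p = 0.923), and it was also missed at a GC minimum of 65%.

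The share with a negative effect fell with the number of these 3 sequences that a region held. With none of them 89.6% of 605 very GC-rich promoters were negative, with 1 of them 79.3% of 352, with 2 of them 71.3% of 101, and with all 3 of them 3 of 8. These 8 were Lmo4, Ttc7b and Mxd1, with effects of -1.67, -1.32 and -0.72, and Ywhaz, Rundc3b, Gm24157, Chchd7 and Klf13, with 0.64, 0.66, 0.73, 0.73 and 1.24 in the authors' deposited table, named because the count is small. These shares were not adjusted for GC, and the share also fell in other promoters. There it was 22.5% of 1566 with none, 15.8% of 2963 with 1, 10.4% of 1750 with 2 and 9.72% of 319 with all 3. The sum was formed after the odds ratios were known and was not tested. A match is a description of letters in these regions, not a bound site.

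**Figure D3:**
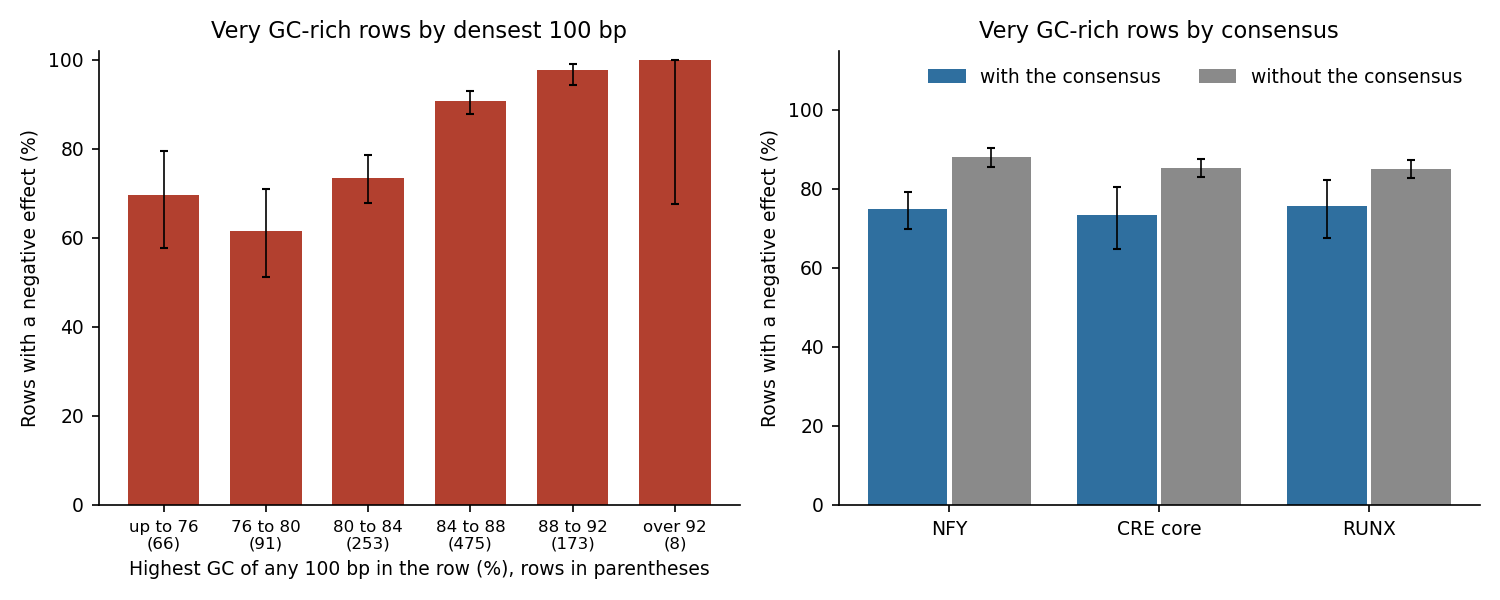
Left, share of very GC-rich promoter regions with a negative effect (%) by the highest GC content of any 100 bp in the region, with the number of regions under each bar. Right, the same share in regions with and without CCAAT (NFY), TGACGT (CRE core) or TGTGGT (RUNX); whiskers are 95% Wilson intervals. The share rises from 61.5% to 97.7% between 76 to 80% and 88 to 92% GC, and it is lower with each consensus, 74.8% against 88.2% for CCAAT.

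Width and strand asymmetry were the other called features. Wider regions were more often negative at equal GC content (odds ratio 1.54 per SD of 332 bp, 1.30 to 1.83, adjusted p = 6.90e-06), and the effect of width was smaller in other promoters (1.12, n = 7664, interaction adjusted p = 0.0172). This rested on the covariates: without them the odds ratio was 1.07 and no longer called, and with GC taken over the central 200 bp it turned to 0.681. A larger absolute GC skew, that is an excess of G over C or of C over G on 1 strand, went with fewer negative effects (0.704 per SD, 0.590 to 0.840, n = 1066, adjusted p = 0.000697). For other promoters the odds ratio of the skew was 0.821, with no called difference (n = 7664, interaction adjusted p = 0.293). In the 280 regions of at least 75% GC, of which 16 were positive, neither this skew (0.678) nor the densest 100 bp (7.91) was called.

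The 5 elements that follow had no called link to direction within the very GC-rich promoters, and only some of them were common there. GGGCGG, the GC box of SP and KLF factors, was in 954 of 1066 regions (odds ratio 0.709, 0.365 to 1.38, n = 1066, adjusted p = 0.513). The EGR and WT1 consensus GCGNGGGCG, which can overlap a GC box, had an odds ratio of 1.49 (1.02 to 2.17, n = 1066, adjusted p = 0.132). A G-quadruplex pattern of 4 runs of at least 3 G with loops of up to 7 bases, present in 742 regions, had 1.54 (1.03 to 2.30, n = 1066, adjusted p = 0.125). CCGGAAG, the ETS consensus, had 0.652 (0.421 to 1.01, n = 1066, adjusted p = 0.159), and GCGCATGC, the NRF1 consensus, had 0.534 (0.264 to 1.08, adjusted p = 0.197). These intervals leave room for odds ratios well away from 1. In the 2746 regions at a GC minimum of 65% all 5 elements were called in the same direction, with odds ratios of 0.602, 1.56, 1.71, 0.542 and 0.474 in the order given. All 5 were also called in other promoters, with 0.653, 1.60, 1.89, 0.525 and 0.475 in that order (adjusted p of 0.00531 or less by Wald tests). For none of the 5 was a difference between the sets called.

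For 3 of the 29 features (10.3%) the odds ratio differed between very GC-rich and other promoters. CGGCGGCGG, 3 CGG units in a row, was in 43.3% of negative and 40.6% of positive very GC-rich regions (odds ratio 0.879, 0.604 to 1.28). In other promoters it was in 33.1% of negative and 11.9% of positive regions (1.68; n = 7664, interaction adjusted p = 0.0226). The odds ratio in the very GC-rich set lay above 1 when the GC minimum was 65% (1.40) and when GC was taken over the central 200 bp (1.87). The exonic share of a region went with fewer negative effects in other promoters (0.695 per SD) but not detectably in very GC-rich ones (0.937, 0.800 to 1.10; n = 7664, interaction adjusted p = 0.0172). It was called in the larger sets at a GC minimum of 65% (0.808) and with GC of the central 200 bp (0.850). The third was width, given above. None of these differences was called among regions of at least 300 bp (0 of 27 features by the Wald test, 7 at an unadjusted p under 0.05).

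**Figure D4:**
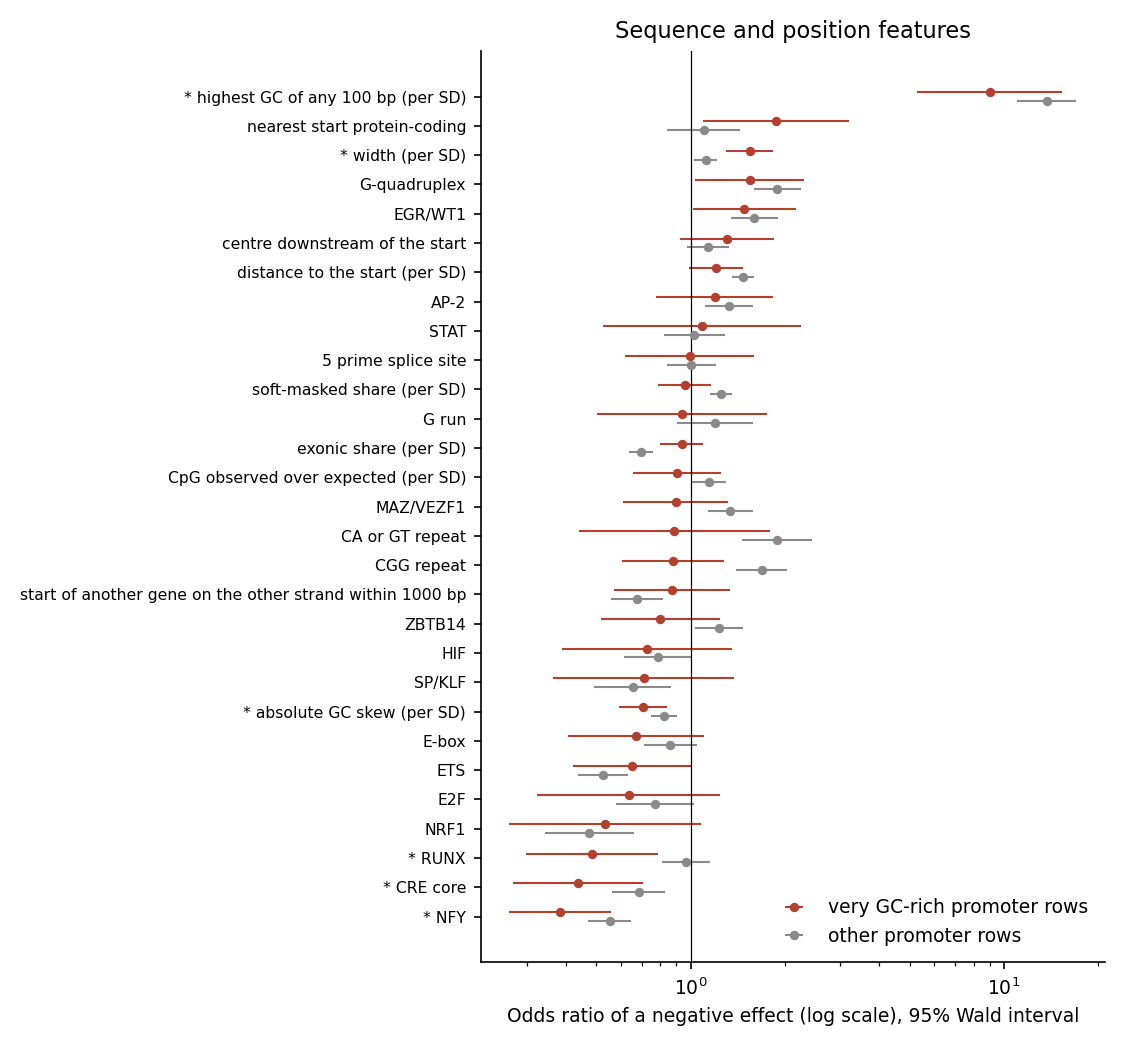
Odds ratio of a negative effect (log scale) with its 95% Wald interval for each of the 29 fitted features, in very GC-rich and in other promoter regions; continuous features are per SD over promoter regions. An asterisk marks the 6 features called in the very GC-rich set, from 9.0 for the densest 100 bp to 0.383 for NFY; the CRE core is TGACGT.

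Seen in windows of equal length, though not of equal placement, the positive regions came closer to ordinary promoters in their CCAAT content. RefSeq windows ran from 250 bp before to 50 bp after the start. Region windows lay round centres at a median of 48 bp downstream in negative and 14.75 bp in positive very GC-rich promoters. In the 300 bp round each region's centre CCAAT was found in 32.9% of positive and 14.3% of negative very GC-rich promoters, in 34.6% of other promoter regions and in 37.4% of 32851 RefSeq promoters of that length. TGACGT was in 14.7%, 4.35%, 11.1% and 7.51% of these sets, and TGTGGT in 6.47%, 3.91%, 12.4% and 16.8%. Elements made of G and C ran the other way. GGGCGG was in 87.8% of very GC-rich windows, 62.2% of other promoter windows and 35.7% of RefSeq promoters. GCGNGGGCG was in 28.9%, 9.75% and 5.55%, CGGCGGCGG in 28.8%, 7.47% and 3.59%, and the G-quadruplex pattern in 54.1%, 24.0% and 18.6%. The very GC-rich regions were chosen by composition, so these last shares describe the choice.

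The lowest effects were spread over unrelated genes. The lowest was -4.45 at Zdhhc18, a palmitoyltransferase gene (chr4:133633151-133633700, UTR exon, 77.8% GC, adjusted p = 3.31e-12 in the authors' deposited table). Chn1, which encodes the Rac-specific GTPase-activating protein chimaerin, had -4.31 (chr2:73774851-73775775). Vezf1, a zinc finger factor that binds runs of G, had -3.90 (chr11:88067726-88069250, intron, 72.8% GC). Nrf1, a factor that itself binds GC-rich promoters, had -3.37 (chr6:30047451-30048500, 71.5% GC). Begain, Gm45234, 4930488L21Rik, Lcor, Dnajc21 and Zfp280d completed the lowest 10, with effects from -3.33 to -3.16. All 10 were single-copy.

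Sequence with near-identical copies elsewhere in the genome held most of the highest effects. The top was 4.46 at Gm21989 (chr12:20990076-20991075, noncoding exon, 12 copies of the 300 bp round its centre), followed by 4.02 at Gm5784 with 9 copies, 3.60 at Gm48693 with 9 and 3.42 at Gm2237 with 8 in the authors' deposited table. Fgfr1op, which encodes a centrosomal protein, had 2.88 with 2 copies, and Gm13244, 9030624G23Rik and Gm13243 had 2.57, 2.47 and 2.44. Tagap1, a gene for a GTPase-activating protein of activated T cells, had regions at 2.54 with 2 copies and at 2.46 with 1. Only 17 of the 1066 regions were multi-copy, and 16 of them were positive, with a median effect over the 17 of 2.44. The exception was Znrf1, with -0.60. The sources used here do not say how reads matching several copies were assigned, and these values belong to a sequence rather than to a gene. The 8 regions nearest a processed pseudogene were all positive, with a median of 1.91, and 5 of them were multi-copy. Of the other pseudogene classes, both regions at transcribed processed pseudogenes and 1 of 2 at pseudogenes of no further class were negative. Over the 1049 single-copy regions 85.3% were negative. After Tagap1 the highest single-copy effects were 1.89 at Zmym2, 1.77 at the lincRNA 2410018L13Rik and 1.70 at the pseudogene Gm13142. The Zmym2 region lay 887.5 bp from a listed region with 2 copies and an effect of 1.88.

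Less GC-rich sequence at the same start was less often negative. At 193 starts a very GC-rich region had a listed neighbour under 70% GC within 2000 bp, at a median distance of 712.5 bp and with a median GC content of 64.8% against 73.5%. Of the very GC-rich regions 82.9% were negative, and of their neighbours 58.0%. Both were negative at 110 starts and both positive at 31. The very GC-rich region alone was negative at 50 starts and the neighbour alone at 2 (exact two-sided McNemar test, p = 6.12e-13). The 2 exceptions were Erf, an ETS repressor (0.63 and -0.76), and Rgmb (0.93 and -0.79). The 193 pairs used 186 different neighbours, and the pair members differ in position as well as in GC.

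Differences within a pair were ranked as neighbour minus very GC-rich region, so pairs with a higher neighbour come first. The neighbour was higher in 137 of the 193 pairs. The largest differences were between positive values in copied sequence: 2.04 and 6.45 at Gm14399, 2.54 and 6.40 at Tagap1 and 2.88 and 6.23 at Fgfr1op. Next came single-copy pairs of opposite sign, named after their values were seen. Micall1, which encodes an endosomal adaptor, had -1.87 in its coding exon (chr15:79108851-79109800, 72.7% GC) and 0.82 just upstream (chr15:79108476-79108725, 60% GC). Atf1, a CREB family factor, had -1.54 at its start (70.2% GC) and 1.08 in the intron (56% GC). Ahcyl2 had -1.52 and 1.01, and Kmt2a, a histone H3 lysine methyltransferase, had -1.85 and 0.63.

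**Figure D5:**
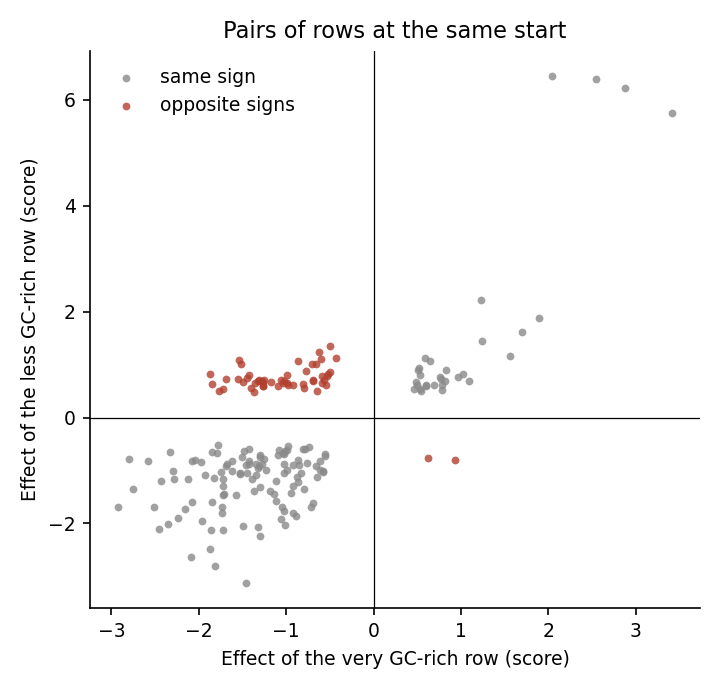
Deposited effect (a score) of the less GC-rich region against that of the very GC-rich region at the same start, for 193 starts. Points in the upper left, 50 starts, have a negative very GC-rich region and a positive neighbour; the lower right holds 2.

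Gene groups were compared with the 84.1% of all very GC-rich promoters that were negative, as counts and with no test. The lists differed, from all regions negative in 3 of them to 8 of 17. All 18 regions of homeobox and other developmental transcription factor genes were negative (median -1.20), led by Hoxa13 (-2.08), Sox30 (-1.89) and Hoxd8 (-1.88), and 32.4% of 37 regions of such genes were negative among other promoters. All 20 regions of WNT, TGF beta, Notch and Hedgehog pathway genes were negative (median -1.63). Among the receptors of this group Bmpr1a had -2.45 and Acvr2b, an activin receptor, -2.16, and the ligand gene Wnt4 had -2.16. All 11 regions of the cell cycle list were negative (median -1.49), led by the CDK inhibitor gene Cdkn1c (-2.67), Cdc42bpa (-2.31) and Cdk14 (-2.21). That list was drawn by symbol, and not all its genes act in the cell cycle. Among others, Cdc42bpa, Cdc42bpb and Cdc42ep1 act with the small GTPase Cdc42 instead. Lists can share regions: these 3 are counted again among small GTPases and their regulators, and Rnf2 is in the chromatin and ubiquitin lists.

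Chromatin and ubiquitin genes were mostly negative, as were 84.1% of all very GC-rich promoters. The 4 groups of this paragraph had shares of 94.6%, 91.3%, 94.1% and 90.9% in the order given. Their distance from 84.1% was not tested. Of 37 regions of chromatin modifier and remodeller genes 35 were negative (median -1.31), with the DNA methyltransferase gene Dnmt3a at -2.80 and -1.92 and the Polycomb gene Pcgf5 at -1.96. Of 46 regions of ubiquitin conjugation and removal genes 42 were negative (median -1.41), led by Klhl2 (-2.59), Ube2e1 (-2.58) and Rnf180 (-2.44), while Ube2h (0.96), Otud3 (0.86), Fbxl20 (0.76) and Socs1 (0.50) were positive. Small GTPases and their regulators were negative in 16 of 17, led by Cdc42bpa, Rab3ip (-2.12) and Rhou (-2.07), with Rasa1 at 0.61. C2H2 and BTB zinc finger genes were negative in 20 of 22, led by Zfp280d (-3.16), Zbtb39 (-2.83) and Zfp532 (-2.15). Positive were Zfp131 (0.83) and 1 region of Zfp800 (0.71), while another very GC-rich region of Zfp800 had -0.82. Among other promoters the shares of these 4 groups, in the same order, were 30.7%, 27.1%, 22.9% and 11.4%.

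RNA processing and translation genes had the lowest share of the lists with a very GC-rich region, 8 negative of 17, with a median effect of 0.46. Eif4g1, the scaffold of the cap-binding complex, had -2.85, Ago4 of the microRNA pathway -2.40 and the RNA-binding protein gene Hnrnpa0 -2.16. Positive effects reached only 1.06, and their GC contents, like those of the whole list, lay between 70% and 76%. Ribosomal protein genes had no very GC-rich region and 65 other promoter regions, of which 4.62% were negative. MAP kinase cascade, DUSP and PTP genes were negative in 10 of 15. They ran from Map4k3 (-2.72), Map2k4 (-1.88) and the scaffold gene Mapk8ip1 (-1.62) to Mapk8ip2 (1.30) and Ptpn13 (1.23). The list of KLF, SP and EGR genes held 5, of which Vezf1 is a zinc finger gene outside these families. Vezf1 (-3.90), Klf3 (-2.33) and Klf10 (-1.27) were negative, and Egr1 (1.57) and Klf13 (1.24) were positive. Solute carriers were negative in 7 of 9, led by the zinc exporter gene Slc30a1 (-2.29), Slc9a2 (-2.13) and Slc22a23 (-1.76), with the glucose transporter gene Slc2a1 at 0.81 and Slc35b2 at 0.71.

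T cell regulators and signalling genes were negative in 8 of 11 (72.7%, median -1.35), and in 15.7% of 108 regions among other promoters. Nr4a2, an orphan nuclear receptor induced by T cell receptor signals, had -2.14, the kinase gene Jak2 had -2.11, and Nfkb1, which encodes the p50 subunit of NF-kB, had -2.09 (chr3, 74.1% GC, intergenic). The 3 positive regions were at Nfkbia, the NF-kB inhibitor gene (1.24), Myc (0.78) and Jund (0.65). The Nfkbia region lay in an intron 721.5 bp downstream of the start and that of Myc in a coding exon 603.5 bp downstream. The positive genes in these 3 paragraphs were chosen after their values were seen.

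The list reached far into the very GC-rich promoters of the genome. Of 2110 protein-coding genes whose 600 bp round the start were at least 70% G plus C, 60% (57.9 to 62.1%) had a listed region of either direction within 1000 bp, against 29.0% of genes under 70% and 32.1% of all 20807. At 75% or more the share was 74.4% of 636. Genes without a listed region were not analysed here, and a lack of reads cannot be told apart from a lack of effect there.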

How the data were processed

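STARR-seq output was measured in activated Th1 cells, 1 group of 2 libraries. The values came from 1 table that, per the file headers, was derived on mm10 from the alignments of both libraries. The sources used here do not give the aligner, caller, test or normalization. The deposited columns are a signed effect (a score of unstated scale and direction), its p-value, its adjusted p-value or q-value, and the width in bp, which fixes the start as counted from 1. Depth is unknown, so no precision beyond the deposited p-values can be given, and intervals on shares cover counting over regions alone.

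Starts came from GENCODE M21 basic transcripts, sequence from GRCm38 and promoter windows of 300 bp (250 before to 50 after the start) from RefSeq. The nearest start names a region. Copies of the 300 bp round a centre were matches of at least 95% identity over at least 240 bp (minimap2 2.31, k = 19, w = 10, N = 50, p = 0.5). Regions on scaffolds and sex chromosomes (367) were left out. Statistics used Python 3.11.15, numpy 2.4.6, scipy 1.17.1, pandas 2.3.3 and statsmodels 0.14.6, plots matplotlib 3.10.9. Each feature, a consensus on either strand or a position or composition measure, was fitted in a logistic model over all promoter regions with every term interacting with membership, Wald tests and Benjamini-Hochberg adjustment over the 29 features with at least 10 regions per cell. The models were tested on simulated data. The highest GC of any 100 bp is the GC of the whole region where it is narrower.

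The regions, features and 13 gene lists (by symbol) were chosen with earlier results of these data known. The rule for named genes took the 10 highest and 10 lowest effects, the 3 regions on either side of 70% GC, the 3 largest absolute effects per list, the 3 pairs with the largest difference and, for sequences, the 2 highest and 2 lowest single-copy regions and 1 per called consensus, as far as they held 120 or 100 bases that are unmasked and outside exons. The restriction to single-copy regions for the consensus examples was added after the values were seen. The positive regions of the chromatin list are not reported here by name. Alternatives were other GC minimums, windows, start sets, thresholds and covariates.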

Additional observations from a re-analysis of the deposited data

How the results depend on the processing

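The odds ratio of a negative effect against other promoters lay between 11.3 and 56.7 over 13 alternatives, the factor per percentage point of GC between 1.41 and 1.65, called in all 13. The odds ratios of NFY (0.326 to 0.526) and of the CRE core (0.367 to 0.646) were called in all 15 that could be fitted. At a GC minimum of 75% neither could be fitted, and there 95.1% of 41 regions with CCAAT and 94.1% of 239 without it were negative. The share with a negative effect and the median effect moved with the choice of regions: to 57.9% and -0.81 at a GC minimum of 65%, 94.3% and -1.34 at 75%, 87.4% and -1.34 at an adjusted p of 0.001 or less, and 55.2% and -0.76 with GC of the central 200 bp. The number of features called was 18 of 39 at 65%, 1 of 7 at 75% and 24 of 39 with the central 200 bp. The number whose odds ratio differed from other promoters was the least stable: 1 at 75%, 5 with starts of protein-coding genes, 0 with regions of at least 300 bp (Wald tests of 27 features, 7 at an unadjusted p under 0.05), 1 with the central 200 bp, 5 without regions over 50% soft-masked, 6 without covariates and 8 with regions nearest a protein-coding start. Signs turned for CGG repeats (1.40 at 65%, 1.87 with the central 200 bp), RUNX (1.04 at the stricter adjusted p) and width (0.681 with the central 200 bp). Odds ratios that were not called crossed 1 for the exonic share (1.05 at 75%) and for SP/KLF (1.01 without covariates), from 0.937 and 0.709; the cause was not tested. The share of very GC-rich starts with a listed region was 53.3% when GC was taken over 300 bp. In the pairs of regions at the same start, the very GC-rich region was the negative one in 96.7 to 100% of those that differed in sign, under 3 alternatives. Leaving out multi-copy regions, taking regions nearest a protein-coding start and every alternative for the differences between sets were chosen after seeing the data. No paired analysis was possible because the table has no value per library, and leaving out a replicate could not be run for the same reason.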
